A study of Canis lupus familiaris with 34 samples.

Results

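Interferon-stimulated genes and the genes of antigen processing were followed across 34 primary cutaneous mast cell tumours (MCTs) of dogs, with 1 tumour from each dog. A list of 40 genes was matched to the array by gene symbol. Of these, 34 were found, each as 1 Transcript cluster (the array's unit for 1 gene), among 32391 clusters in all. The other 6, IFIT1, IFIT3, IFI44, XAF1, SAMD9L and CMPK2, were not found by symbol and were not analysed here.

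The tumours were spontaneous and fell into 2 groups. In the M group (n = 18) the dogs died of metastasis of their MCT, and in the NM group (n = 16) the dogs were still alive at the end of the long follow-up that the study required. Adjuvant treatment was allowed in the M dogs and was not given to the NM dogs, and mean age was 8.17 years in the M and 5.5 years in the NM dogs. Males were 9 of the 18 M and 11 of the 16 NM dogs. The study reports that the NM biopsies had on average been stored longer than the M ones, with no correlation of biopsy age with RNA integrity. The RNA was extracted from biopsies fixed in formalin and embedded in paraffin (FFPE). They hold skin, stroma and leukocytes as well as mast cells, so fewer cells of a type and less RNA per cell cannot be told apart. The breeds were Labrador Retriever (7 M and 3 NM), Cross-breed (3 M and 3 NM), Boxer (1 M and 3 NM), Golden Retriever (1 M and 3 NM), Staffordshire Bull Terrier and Whippet (each 1 M and 1 NM) and 6 breeds with 1 tumour each. Of the last, Curly Coated Retriever, Dogue de Bordeaux, German Shepherd Dog and Hungarian Vizsla were M, and English Toy Terrier and Miniature Schnauzer were NM.

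Interferons are secreted proteins released when cells sense foreign nucleic acid or when lymphocytes are activated. Type I interferons signal through factors that include STAT2 and IRF9 and raise the genes for MX, OAS, IFIT and ISG15 proteins that restrict viruses. Interferon gamma raises IRF1 and the genes that cut proteins into peptides and carry them to MHC class I, among them PSMB8, PSMB9, TAP1 and TAP2. In skin, both responses can come from keratinocytes, macrophages and lymphocytes as well as from tumour cells.

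All values are on a log2 scale. To be tested, a cluster had to exceed 1.84, the median of the table, in 30% or more of the tumours of either group, and 19246 clusters passed. Of the 34 genes, 18 passed: MX1, MX2, OAS3, IRF1, IRF7, IRF9, STAT2, IFI6, IFI35, IFIH1, BST2, TRIM25, PSMB8, PSMB9, TAP1, TAP2, ADAR and NLRC5. The 16 below the filter were ISG15, IFIT2, OAS1, OAS2, OASL, IFI44L, RSAD2, DDX58, USP18, HERC5, HERC6, PARP9, PARP14, DTX3L, EIF2AK2 and EPSTI1. Of the OAS genes only OAS3 was thus bright enough to test, whereas all 4 genes of antigen processing and their regulator NLRC5 were. Of 8 mast cell genes on the array 7 passed the filter, among them KIT, CPA3, MS4A2 and CMA1, and HPGDS did not. Genes of keratinocytes, fibroblasts and B cells passed too, so passing the filter does not identify the tissue. The median of the array values differed little between tumours, from 1.79 to 1.91. Of 13 keratinocyte genes tested, 13 were lower in the M tumours at an unadjusted p under 0.05 and 0 after adjustment (limma). That list holds genes chosen in the study on these tumours, so its direction is not independent evidence.

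No member passed the test for a difference between the M and NM tumours. With limma and Benjamini-Hochberg adjustment over all 19246 clusters, 0 of 18 passed an adjusted p of 0.05 and 0 passed an unadjusted p of 0.05. Over all tested clusters 4.14% passed the unadjusted threshold and 0% the adjusted one. The differences, M minus NM, ran from -0.07 for IFI6 to 0.29 for PSMB9, with a median of 0.05 against -0.02 over all clusters. They were below 0 for 7 of 18 members and for 56.1% of all clusters.

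**Figure D1:**
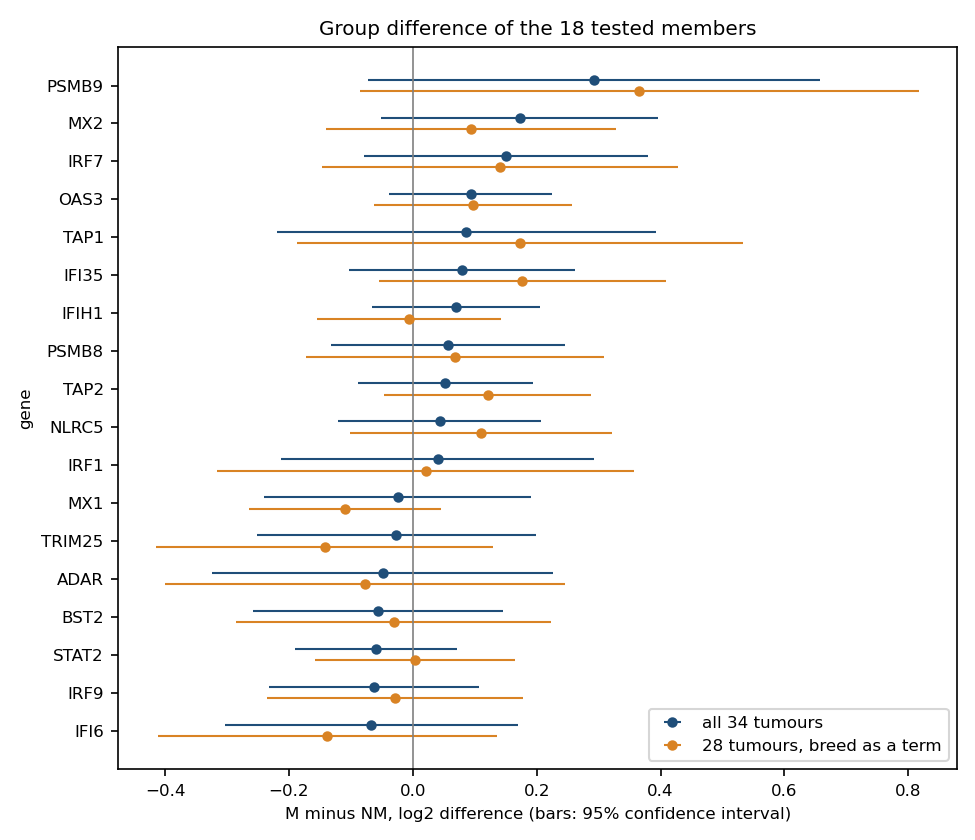
M minus NM difference on the log2 scale for the 18 tested genes, with 95% confidence intervals from limma, in all 34 tumours (blue) and in 28 tumours with breed as a term (orange). Every interval includes 0, and the estimates in all tumours run from -0.07 (IFI6) to 0.29 (PSMB9).

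Among the genes of antigen processing, PSMB9, an inducible catalytic subunit of the immunoproteasome, had the widest spread. Its log2 value ran from 1.77 through a median of 2.42 to 4.56 in the M tumours and from 1.67 through 2.24 to 3.33 in the NM tumours. The groups overlapped, with only M tumours 2 and 4 above the highest NM tumour. The difference was 0.29 ± 0.18 (SE, 95% interval -0.07 to 0.66, limma unadjusted p = 0.112, adjusted p = 0.9997). Without NM tumour 12 it was 0.36 (limma unadjusted p = 0.047), and without M tumour 2 it was 0.18 (limma unadjusted p = 0.211). With age as a covariate it was 0.15 (limma unadjusted p = 0.448).

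TAP1, which with TAP2 forms the transporter that carries peptides into the endoplasmic reticulum, ran from 2.26 through 2.81 to 3.85 in the M and from 2.08 through 2.71 to 3.92 in the NM tumours on the log2 scale. Both the highest and the lowest of all 34 values were in NM tumours. TAP2, PSMB8, the second inducible proteasome subunit here, and NLRC5, the transactivator of MHC class I genes, differed by 0.05, 0.06 and 0.04 (limma unadjusted p from 0.456 to 0.595).

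Of the transcription factors, IRF7, which amplifies the type I response, had log2 medians of 2.76 in M and 2.67 in NM, a difference of 0.15 ± 0.11 (SE, limma unadjusted p = 0.190). STAT2 and IRF9, which act together in the type I response, had differences of -0.06 each, with unadjusted p of 0.363 and 0.458. IRF1, which acts on antigen-processing genes, differed by 0.04, with 1.63 to 2.82 in M and 1.596 to 2.93 in NM.

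Among the effectors and sensors, MX2, a GTPase that restricts viruses in human cells, had log2 values from 2.05 through 2.39 to 3.59 in M and from 1.97 through 2.18 to 2.87 in NM tumours. The difference was 0.17 ± 0.11 (SE, limma unadjusted p = 0.126), and it was 0.11 without M tumour 8. OAS3, which makes the oligoadenylates that activate RNase L, differed by 0.09 (unadjusted p = 0.160) and IFIH1, the RNA sensor MDA5, by 0.07 (unadjusted p = 0.303). BST2, the membrane protein tetherin, differed by -0.06 and ADAR, which edits adenosine in double-stranded RNA, by -0.05. MX1, TRIM25, IFI35 and IFI6 had differences of -0.02, -0.03, 0.08 and -0.07. That of MX1 was -0.11 without M tumour 8 (limma unadjusted p = 0.0865), and that of TRIM25 was 0.05 without NM tumour 12 and -0.07 without M tumour 8.

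When the level filter was dropped, the 16 dim genes gave 0 of 16 with an unadjusted p under 0.05. Only OAS1 had a difference below 0 (-0.01), and these estimates are not independent, since the genes share tumours. Shares of all clusters in this fit, for p or for sign, are not given here. The smallest p belonged to DTX3L, a ubiquitin ligase that works with PARP9, with a difference of 0.12 (limma unadjusted p = 0.0508, adjusted p = 0.999). OASL, ISG15 and OAS2 followed with 0.09, 0.13 and 0.20 (unadjusted p from 0.0712 to 0.108). For OAS2 the difference was 0.10 without M tumour 8.

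No member passed the test for breed either. In 28 tumours of the 6 breeds with at least 2 tumours, with group as a covariate, 0 of 18 members passed an unadjusted p of 0.05 in the moderated F test of limma, where 6.17% of all clusters did. After adjustment, 0 of 18 members and 0.0052% of clusters (1) passed. Cross-breed dogs, which are of mixed descent, were taken as 1 breed here and wherever breed was a term. The median F was 0.72 over the members and 0.98 over all clusters.

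IFI6, an interferon-induced membrane protein, had the smallest breed p (F = 2.10, limma unadjusted p = 0.101, adjusted p = 0.813). Its log2 values in the 4 Boxers were 2.73, 2.88, 2.41 and 3.61 and in the 4 Golden Retrievers 2.38, 1.98, 2.05 and 2.66. The Boxers were on the whole higher, but the lowest Boxer lay below the highest Golden Retriever. Leaving out 1 tumour at a time moved F between 1.34 and 3.12. The upper end came without the lowest Boxer, NM tumour 2 (limma unadjusted p = 0.0275). TAP2, OAS3, BST2 and PSMB9 came next, with F from 1.03 to 1.39 and unadjusted p from 0.266 to 0.425.

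Labrador Retrievers, with 10 tumours, were compared with all other tumours with group as a covariate. None of the 18 members passed an unadjusted p of 0.05 (limma), where 4.1% of clusters did, and none passed after adjustment. The differences ran from -0.12 for BST2 to 0.15 for TRIM25, the ubiquitin ligase that activates the RNA sensor RIG-I in human cells, with 10 of 18 below 0, against 48.7% of clusters. IRF1, STAT2 and ADAR, also among the 5 smallest p, differed by 0.14, -0.07 and -0.11.

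The group difference was next compared between Labrador Retrievers and the other breeds. The interaction had 0 of 18 members at an adjusted p under 0.05 (limma) and 0 at an unadjusted one, where 1.47% of clusters passed the latter. It was below 0 for 15 of 18 members, against 52.3% of clusters. These estimates are not independent, since the members share tumours. TAP1 had the smallest p.

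In the 7 M Labrador Retrievers TAP1 ran from 2.30 through 2.74 to 3.08 on the log2 scale. In the 3 NM Labrador Retrievers it was 2.50, 2.95 and 3.92. In the other breeds it ran from 2.26 through 2.89 to 3.85 in 11 M tumours and from 2.08 through 2.71 to 3.21 in 13 NM tumours. The M tumours thus had the lower mean in Labrador Retrievers and the higher mean elsewhere, with overlap in both. The interaction was -0.69 ± 0.34 (SE, limma unadjusted p = 0.05004, adjusted p = 0.9999). Leaving out 1 tumour at a time moved it between -1.004 (without NM tumour 11, limma unadjusted p = 0.0105) and -0.30 (without NM tumour 12, the Labrador Retriever with the highest TAP1, limma unadjusted p = 0.411). TRIM25 and PSMB9 had interactions of -0.40 and -0.57, with unadjusted p of 0.127 and 0.181.

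In the Cross-breed tumours TAP1 was 3.71, 3.17 and 3.85 in the 3 M and 2.64, 2.77 and 2.78 in the 3 NM tumours on the log2 scale, so the groups did not overlap. The same held for TAP2 and IFI35, both higher in every M tumour. That made 3 of 18 members higher in every M Cross-breed tumour, against 4.25% of all tested clusters, and 0 of 18 lower in every one, against 3.79%. This comparison was chosen after the values were seen, and an exact permutation test of 3 tumours against 3 allows no p under 0.05. With breed as a term in 28 tumours, 0 of 18 members had an unadjusted p under 0.05 for M against NM (limma), where 4.31% of clusters did, and 7 of 18 estimates were below 0, where 56.8% of clusters were. PSMB9 then differed by 0.37 and TAP1 by 0.17 (unadjusted p of 0.108 and 0.331).

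**Figure D2:**
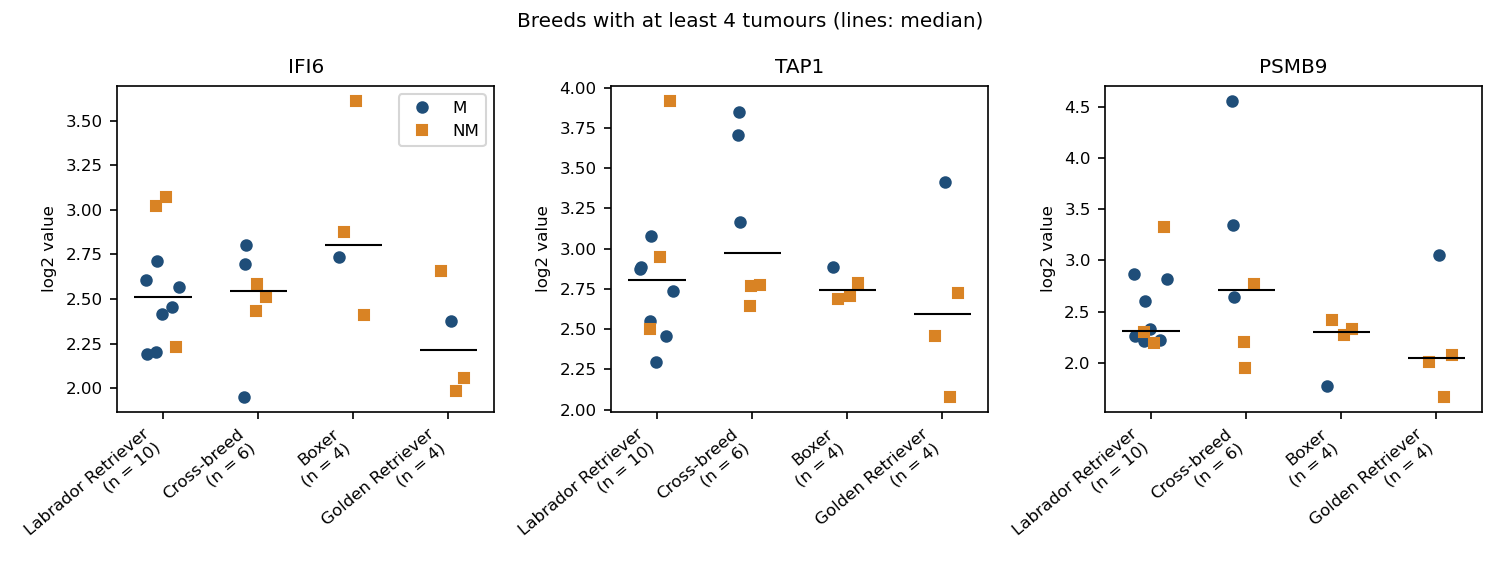
Log2 values of IFI6, TAP1 and PSMB9 in the 4 breeds with at least 4 tumours, by group (blue circles M, orange squares NM), with the breed median as a line. TAP1 separates the M from the NM tumours in Cross-breeds (3.17 to 3.85 against 2.64 to 2.78), while in Labrador Retrievers the highest value, 3.92, is an NM tumour.

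The largest departures in these genes belonged to single tumours. M tumour 8, the only German Shepherd Dog, held the highest value of all 34 tumours for 9 of the 34 genes. They were ISG15, MX1, MX2, OAS2, IFI44L, IFIH1, HERC6, PARP9 and EIF2AK2. Of these 9, 6 were below the level filter. The tumour was first or second for 16 of 34 and below the median for 5. Over all clusters it held the highest value in 2.01%, with 2.56% of the tested clusters and 1.2% of those below the filter. The share of all clusters for which it was first or second is not given here. No other tumour was highest for more than 3 of the genes. The tumour was singled out after its values were seen, so this is a description with no test, and with 1 dog of the breed tumour and breed cannot be told apart.

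The gap was widest for OAS2, another oligoadenylate synthetase. Its log2 value was 3.61 in M tumour 8, with the next tumour at 2.18, and the median of the other 33 was 1.66. MX1, a GTPase against viral RNA, was 3.40 there against 2.35 in the next tumour and a median of 1.93. MX2 was 3.59 against 2.87 and 2.30. For OAS2 and MX1 the gap to the next tumour, 1.43 and 1.05, was wider than the whole range of the other 33 tumours, 0.89 and 0.77.

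In the other genes that it led, the gap was smaller. ISG15, the ubiquitin-like modifier, was 1.997 against 1.88, and IFI44L was 1.98 against 1.68. IFIH1 was 2.33 against 2.14, and EIF2AK2, the kinase PKR that halts translation, 1.74 against 1.64. HERC6 and PARP9 were near ties, at 1.63 against 1.595 and 1.87 against 1.83. The antigen-processing genes did not all share this order: M tumour 8 ranked 15th of 34 in PSMB9, 8th in TAP1, 25th in TAP2 and 29th in NLRC5. It ranked 2nd in PSMB8. IRF1 (17th) and IRF7 (19th) were near the middle. Nor did all other interferon-stimulated genes share it: the tumour ranked 10th in RSAD2, 11th in BST2, 13th in IFI6, 16th in OASL, 19th in USP18 and 23rd in IFI35. These stand beside the 16 of 34 genes for which it was first or second.

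Other genes of the pathway and of other cells were read in the same tumour. Among 16 further interferon targets on the array it was highest for 4: PML, SAMHD1, RNF213 and UBE2L6. PML and SAMHD1 are restriction factors in human cells, and UBE2L6 is the enzyme that passes ISG15 to its substrates. Over these 16 the tumour's median rank was 7, and it ranked 31st in IDO1 and 32nd in GBP5. Over all 70 pathway genes on the array it was highest for 7, beside 2.01% of all clusters. It led 1 of 13 genes of MHC class I and loading, 1 of 9 of MHC class II and 1 of 6 interferon receptors. It led 0 of 10 kinases, STATs and IRFs and 0 of 11 genes of nucleic acid sensing. It was highest for none of the 5 interferon genes. Its fibroblast score (mean z-score of the marker genes) was 2.24 and its macrophage score 2.36, the highest of all tumours for both. It was first or second for 7 of 7 fibroblast and 3 of 6 macrophage markers, the latter including CD163 and MSR1, scavenger receptors of macrophages. NM tumour 9, second for both scores at 2.07 and 1.28, had log2 values of 1.94 for MX1, 2.10 for MX2 and 1.69 for OAS2, beside medians over all tumours of 1.93, 2.32 and 1.66. M tumour 2, with a macrophage score of 1.20, had 1.97, 2.76 and 1.98 for the same genes, the last the third highest. The part of these cells in the values of M tumour 8 was not tested.

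**Figure D3:**
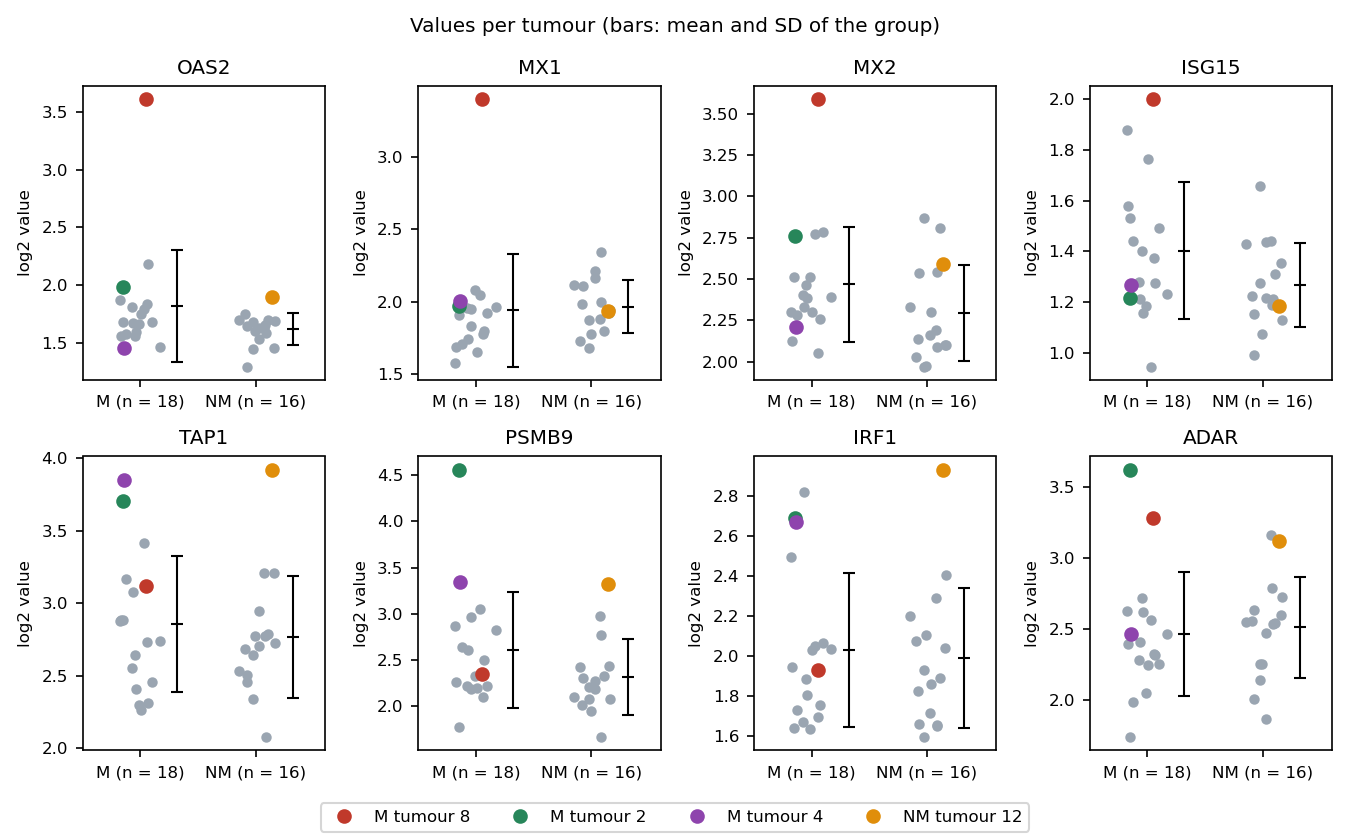
Log2 value of 8 genes in each tumour by group, with the group mean and SD as bars, and 4 tumours coloured. In the top row (OAS2, MX1, MX2, ISG15) M tumour 8 is the highest, with OAS2 at 3.61, and in the bottom row (TAP1, PSMB9, IRF1, ADAR) each highest value belongs to M tumour 2 or NM tumour 12.

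The highest values of TAP1 and PSMB9 were in other tumours. M tumour 2, a Cross-breed, had a PSMB9 of 4.56 on the log2 scale, 1.21 above the next tumour, and the highest ADAR, 3.62. NM tumour 12, a Labrador Retriever, had the highest TAP1 (3.92), IRF1 (2.93) and TRIM25 (3.19). M tumour 4, a Cross-breed, was second in TAP1 (3.85) and PSMB9 (3.35). M tumour 8 was second in both ADAR (3.28) and TRIM25 (2.81). PSMB8, TAP2 and NLRC5 were highest in other tumours again, NM tumour 13, M tumour 10 and M tumour 13. The antiviral genes in the 3 tumours were mixed. OAS2 was the third highest in M tumour 2 (1.98) and the fourth in NM tumour 12 (1.90), and MX2 ranked 6th (2.76) and 7th (2.59) there, while in M tumour 4 OAS2 was 1.46 and MX2 2.21. MX1 lay between 1.93 and 2.003 in all 3, beside a median of 1.93 over all tumours.

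**Figure D4:**
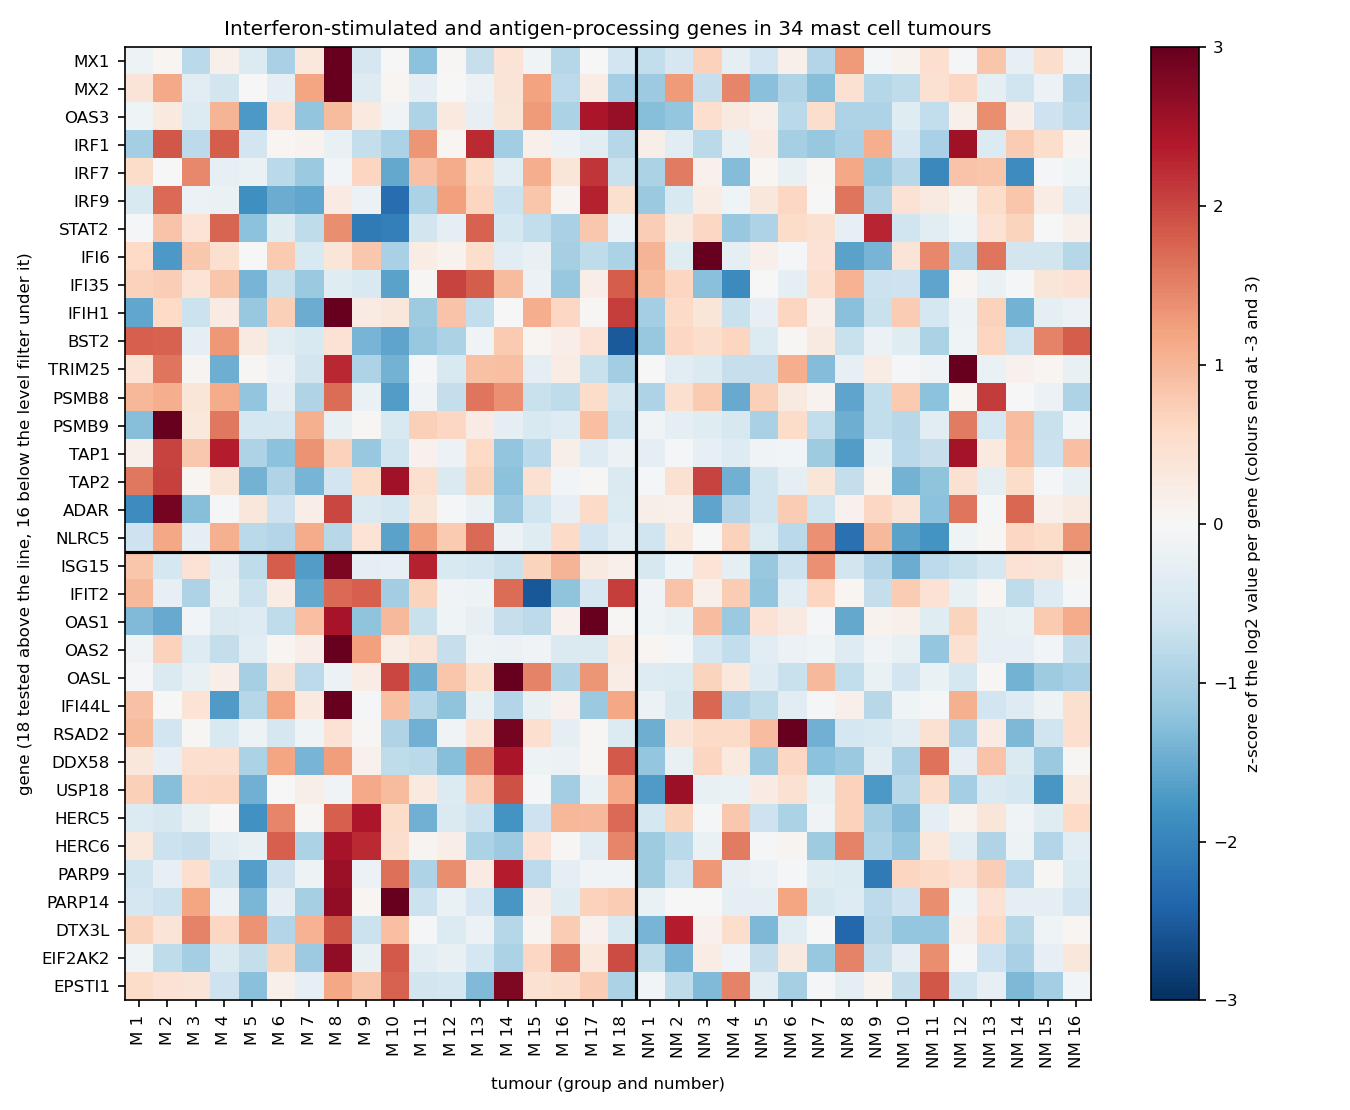
Log2 values as z-scores per gene (colour) for the 18 tested genes and the 16 genes below the level filter (rows) in 18 M and 16 NM tumours (columns, named by group and number). M tumour 8 is the highest of its row in 9 genes, while M tumour 2, M tumour 4 and NM tumour 12 are red in TAP1, PSMB9 and IRF1.

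The members rose and fell together only weakly. Over 153 pairs of the 18 tested genes the median Pearson correlation across 34 tumours was 0.17, from -0.51 to 0.73, and 122 pairs were above 0. The median was 0.02 over all tested clusters. It was 0.20 in the M and 0.07 in the NM tumours, and 0.13 once each array was centred on the mean of its tested clusters, where all clusters gave 0.03. The 16 dim genes had a median of 0.26, where all clusters below the filter had 0.10. These correlations are descriptions over arrays that share their normalisation. IFI6 was the only member with a negative r with the mean of the others over 34 tumours (r = -0.14). Others were weak: MX2, IFIH1 and MX1 had r of 0.26, 0.26 and 0.28 and rho of 0.09, 0.13 and 0.15.

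All pairs were tested by permutation and adjusted over 153 pairs, and 10 passed an adjusted p of 0.05 by r and 2 by rho. The share of such pairs over all clusters is not given here. Values are given for 10 pairs: the 5 with the highest r, chosen for it, and the pairs among PSMB8, PSMB9, TAP1 and TAP2 that were not yet among them. The highest was PSMB9 with TAP1, with r = 0.73 and rho = 0.59 (permutation p = 1e-05, the smallest the permutations can give, and p = 0.00032, adjusted 0.00153 and 0.0421). Without the 2 tumours farthest from the median of the first gene, r was 0.65, and it was 0.69 within M and 0.85 within NM tumours. Without the 4 tumours highest in TAP1 it was 0.45. IRF1 had r = 0.68 and rho = 0.54 with TAP1 and r = 0.62 and rho = 0.45 with PSMB9 (permutation adjusted p for r of 0.00153 and 0.00918, for rho of 0.0663 and 0.115). PSMB9 with ADAR had r = 0.62 and rho = 0.40 (permutation adjusted p = 0.00918 and 0.201).

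TAP1, PSMB9, PSMB8 and TAP2 lie next to each other in the dog MHC according to RefSeq (assembly UU_Cfam_GSD), yet the other pairs of this block were less alike. TAP1 with TAP2 had r = 0.28 and PSMB8 with PSMB9 r = 0.23 (permutation adjusted p = 0.334 and 0.477). PSMB8 with TAP1, PSMB8 with TAP2 and PSMB9 with TAP2 had r of 0.34, 0.20 and 0.30 (permutation adjusted p from 0.237 to 0.565). Whether the correlation of PSMB9 with TAP1 differs from these was not tested.

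MX1 and MX2, also neighbours on their chromosome, had r = 0.65 and rho = 0.38 (permutation p = 0.00202 and 0.0271, adjusted 0.0343 and 0.207). The value rested on M tumour 8. Without that tumour r was 0.28 and rho 0.32, and r was 0.88 within M and 0.23 within NM tumours. Array probes for MX1 and MX2, and for the OAS genes, may take up RNA of the related gene, which was not tested.

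**Figure D5:**
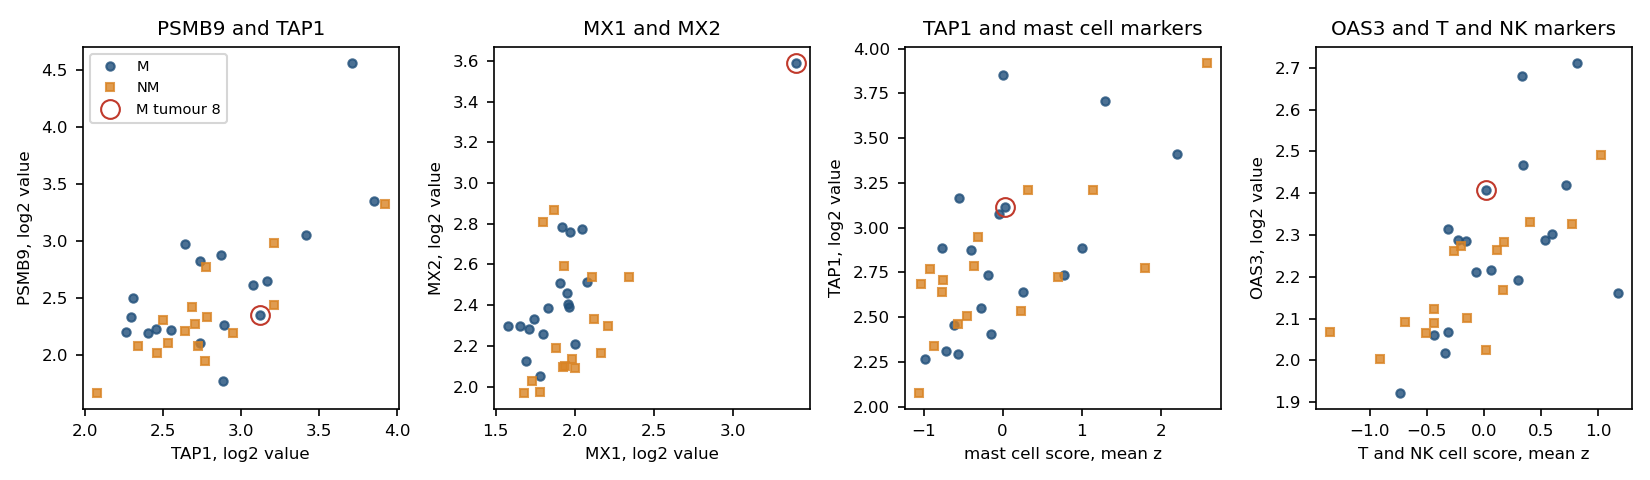
Scatter over 34 tumours of PSMB9 against TAP1, MX2 against MX1, TAP1 against the mast cell score and OAS3 against the T and NK cell score (log2 values and mean z-scores; blue circles M, orange squares NM, red ring M tumour 8). PSMB9 and TAP1 rise together (r = 0.73), while MX1 and MX2 rest on M tumour 8 (r = 0.65, and 0.28 without it).

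Several members rose or fell with the marker scores of cell types in the biopsy, mast cells among them. Of 108 relations of 18 genes with 6 cell type scores, 21 passed an adjusted p of 0.05 by r, in 12 genes, and 9 of them also by rho. Of these genes, 6 passed for more than 1 score, and whether a gene followed 1 score more than another was not tested. The scores used were those for mast cells, endothelium, keratinocytes, macrophages, B and plasma cells, and T and NK cells. Fibroblast, neutrophil and dendritic cell scores were not among them. The share of all clusters that follow these scores is not given here. The counts therefore do not show that these genes follow the scores more often than other genes do. With the mast cell score TAP1, ADAR and PSMB9 had r of 0.65, 0.61 and 0.62 and rho of 0.63, 0.66 and 0.59 (permutation p for r from 1e-04 to 0.00021, adjusted p for r of 0.00454 each). For TAP1, r was 0.57 within M and 0.75 within NM tumours, and 0.49 without the 2 tumours farthest from the median score. The mast cell score was 2.58 in NM tumour 12, the highest of all, 1.298 in M tumour 2 and 0.01 in M tumour 4.

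The same genes followed other scores too. PSMB9 had r = 0.64 with the B and plasma cell score (permutation adjusted p = 0.00849) but rho = 0.36 (adjusted p = 0.176). ADAR had r = 0.60 with the endothelium score (permutation adjusted p = 0.0072) but rho = 0.41 (adjusted p = 0.121). TAP1 had r = 0.47 and rho = 0.59 with the macrophage score (permutation adjusted p = 0.0391 and 0.00612).

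OAS3 and PSMB8 rose with the T and NK cell score. OAS3 had r = 0.66 and rho = 0.74 (permutation adjusted p = 0.00324 and 0.00216), with 0.56 within M and 0.81 within NM tumours and 0.75 without the 2 farthest tumours. It also had r = 0.47 and rho = 0.51 with the B and plasma cell score (permutation adjusted p = 0.0391 and 0.0278). PSMB8 had r = 0.60 and rho = 0.61 with the T and NK cell score (permutation adjusted p = 0.00454 and 0.0054). TRIM25 and MX2 had r of 0.55 and 0.52 with the macrophage score (permutation adjusted p = 0.0212 and 0.0356), but rho of 0.45 and 0.35 (adjusted p = 0.0761 and 0.184). Negative relations were among the 21 too. IFI6 fell with the mast cell score (r = -0.44, rho = -0.50, permutation adjusted p = 0.0499 and 0.034). IFIH1 fell with the keratinocyte score (r = -0.45, rho = -0.47, permutation adjusted p = 0.0391 and 0.0669). Whether the cell types account for these values was not tested.

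The mean z-score of the 18 tested genes, used as 1 value per tumour, ran from -0.80 through -0.03 to 1.22 in the M and from -0.60 through -0.07 to 0.69 in the NM tumours. It was highest in M tumour 2 (1.22), M tumour 8 (1.06) and NM tumour 12 (0.69). As a description, it had r = 0.56 with the macrophage score, 0.50 with the B and plasma cell score, 0.38 with the T and NK cell score and 0.37 with the mast cell score. With the keratinocyte score it had r = -0.12.

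Outside the lists, the 5 genes most like this mean, among 10465 genes with 1 symbol, were TMEM150B (r = 0.76), AKNA (0.74), RIN3 (0.72), ARHGAP27 (0.72) and PLAU (0.71), all over 34 tumours. RNF213, an interferon-induced ubiquitin ligase of the pathway list, had r = 0.72.

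The wider pathway was read from a list of 89 further genes, of which 70 were found on the array and 47 were tested. For M against NM 0 of 47 passed an unadjusted p of 0.05 (limma), where 4.14% of clusters did. ERAP1, which trims peptides for MHC class I, differed by 0.14 (unadjusted p = 0.0624), DHX58, a sensor related to RIG-I, by 0.12, the chemokine CCL5 by 0.42 and SOCS1, which restrains JAK signalling, by 0.09. The 7 tested MHC class II genes all had differences above 0, where 56.1% of all clusters were below 0, and none passed. Their median difference was 0.10 against -0.02 over all clusters. These estimates are not independent, since the genes share tumours. The group median was lower in M than in NM for CIITA (2.60 against 2.71) and DLA-DQA1 (3.24 against 3.31) and higher for the others.

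For breed, 2 of 47 passed an unadjusted p of 0.05: PDIA3, of the peptide-loading complex (p = 0.0452), and IRF8, a factor of myeloid cells (p = 0.0486). That share was below the 6.17% of all clusters, and neither passed after adjustment (limma). For Labrador Retrievers against other breeds 0 of 47 passed, where 4.1% of clusters did. IL10RB, a receptor chain for lambda interferons, and PSME1, a proteasome activator, had the smallest p, with differences of -0.22 and -0.32 (unadjusted p = 0.0514 and 0.0546). For the interaction 1 of 47 passed, where 1.47% of clusters did: ERAP1, at -0.34 (limma unadjusted p = 0.0416, adjusted p = 0.9999). With breed as a term, 1 of 47 passed for M against NM, where 4.31% of clusters did: CCL5, at 0.74 (limma unadjusted p = 0.0419, adjusted p = 0.999). Of the interferon genes, IFNG, IFNB1, IFNE and IFNK were below the level filter. IFNA7, with a mean of 2.69, passed it and differed by 0.02 for M against NM (limma unadjusted p = 0.868).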

How the data were processed

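Expression was measured in 34 FFPE biopsies on Affymetrix Canine Gene 1.1 ST arrays. The authors left out outlying arrays and deposited log2 values from Robust Multichip Analysis, which corrects background, normalises arrays to each other and gives 1 value per Transcript cluster. The program, per the submitters' notes, was Affymetrix Expression Console 1.3. Such values are relative to the other arrays and compress low signals. The number of arrays limits the precision, and array batches are not given in the sources used. Groups came from the labels, and age and sex from the study's dog tables. The members and lists were chosen with earlier results of these data known.

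Clusters that exceeded the table's median in 30% or more of a group were tested with limma 3.58.1 in R 4.3.3, after a check on simulated data, with Benjamini-Hochberg adjustment over all 19246. Correlations used two-sided tests of 100000 permutations in scipy 1.17.1. Genes named are the 5 with the highest mean, the 5 with the largest SD and the 3 to 5 with the smallest p in each comparison and direction, up to 4 of the pathway list per comparison, and the 5 genes most like the mean z-score. OAS2, MX1, ISG15 and other genes beyond these were named after their values were seen. Sequences were not analysed here.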

Additional observations from a re-analysis of the deposited data

Results flagged for a closer look

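In 56 groups made of 1 named gene and 1 breed with 4 to 10 tumours, the gap of the highest or lowest tumour to its neighbour was set against the range of the breed. Of these, 5 passed Dixon's 95% limit, and chance flags about 1 in 20 such groups. Of the 10 Labrador Retrievers, NM tumour 12 had a TAP1 of 3.92 on the log2 scale, with the next at 3.08, and a TRIM25 of 3.19, with the next at 2.37. In the same breed M tumour 10 had a TAP2 of 2.67, with the next at 2.31. Of the 4 Golden Retrievers, NM tumour 8 had an IRF7 of 3.09, with the next at 2.42, and NM tumour 9 a STAT2 of 2.17, with the next at 1.73.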

How the results depend on the processing

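With limma and with the methods' t-test, 0 members passed an adjusted p of 0.05 in each comparison under each alternative run (other level filters, variance models and normalisation, array weights, sex, age, breed and 3 cell type scores as covariates, and leaving out each tumour). At an unadjusted p under 0.05, the interaction of group with Labrador Retriever counted 1 member without the level filter, after repeated quantile normalisation and with sex or the keratinocyte score as a covariate, and 0 to 2 when 1 tumour was left out. M against NM and breed counted 0 to 1 when 1 tumour was left out. Over the 18 tested members, the sign of M minus NM changed in 16 combinations of member and setting, in 9 members, and no member passed the adjusted threshold with either sign. TRIM25 went from -0.03 to 0.0084 with age, 0.0014 with sex, 0.023 with the keratinocyte score and 0.0065 with the replicate block. TAP1 went to -0.017 with age, PSMB8 to -0.022 with the T and NK cell score, IRF1 to -0.0036 with the macrophage score, IFIH1 to -0.0016 and ADAR to 0.042 with the keratinocyte score, and IFIH1 to -0.0056 and STAT2 to 0.0035 with breed as a fixed effect. When 1 tumour was left out, the differences ran from -0.0698 to 0.046 for TRIM25 (0.00061 without M tumour 4), from -0.11 to 0.00077 for MX1, from -0.0064 to 0.103 for IRF1 and from -0.11 to 0.0026 for IFI6. In alternatives added after the data were seen, M tumour 8 was the highest in 10 members once array medians were subtracted and in 11 after repeated quantile normalisation, MX1 with MX2 fell to 0.28 without it, and PSMB9 with TAP1 to 0.45 without the 4 tumours highest in TAP1. The 16 replicate numbers that the groups share name different dogs: deviations of same-numbered tumours correlated from -0.61 to 0.44, with 3 above 0.1, and the fit with replicate number as a block gave 0 members. Each member has 1 cluster, so no other choice of cluster could be tried. Signals near the table's median leave small changes undetectable at this number of arrays.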
